A study of Bos taurus with 8 samples.

Results

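The cell cycle and DNA replication genes examined here are 44 genes taken as a list of names, of which 16 act in DNA replication, 20 in mitosis and 8 in the control of entry into S phase, among 12603 genes with a matched probe on the array. A gene was found through the transcript accession of its probes. Of the 44 genes, 40 had at least 1 matched probe, 85 probes in all, and 39 had a detected probe, which is a probe that 4 or more of the 8 arrays measured well above background. For MKI67, TOP2A, MCM2 and GINS2 the number of matched probes was 0, and these genes are not analysed here. Probes that carry other accessions were not searched for them. CDC6, which loads the replicative helicase onto origins, had 1 probe, well above background on 0 of 4 LN arrays and 1 of 4 HN arrays, and was not tested. The 39 genes with a detected probe are 13 of replication, 18 of mitosis and 8 of S-phase entry, and for 38 of them the probe was detected on all 8 arrays (on 7 for TTK).

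Cells copy their DNA in S phase and divide it in mitosis. The MCM proteins form the helicase that opens the double strand, PCNA is the clamp that holds the polymerases on it, and RRM1, RRM2, TYMS and TK1 supply the deoxynucleotides. Cyclins D and E with their kinases release E2F factors to start S phase, CDKN1A (p21) restrains those kinases, and cyclin B with CDK1 drives mitosis, where Aurora and Polo kinases, the spindle checkpoint and kinesins move the chromosomes until CDC20 and UBE2C let the cell exit. In the fetal liver both hepatocytes and blood precursors divide, and mature hepatocytes largely leave the cycle.

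Liver RNA came from fetuses of Japanese Black cows at 8.5 months post-conception, whose dams received either 60% (low nutrition, LN, 4 fetuses) or 120% (high nutrition, HN, 4 fetuses) of the nutritional requirement during gestation. The dams had been inseminated with sex-sorted semen of a single sire, and the fetuses on the arrays were, by the study's methods, those of lowest weight in LN and of highest weight in HN, so fetal weight and diet cannot be told apart. The labels give 1 fetus per array, although the design text mentions pooling of RNA by group. The LN fetuses are named L5, L6, L8 and L9 and the HN fetuses L1, L2, L3 and L10, after their labels. The LN arrays shared 1 slide and the HN arrays a different slide, so slide, scan and diet cannot be told apart either.

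Signals are given as log2 of the scanner's background-subtracted intensity after quantile normalization between arrays, and the brightest detected probe, by mean signal, stands for a gene. Of 43803 spots on an array, 32635 to 33371 were well above background in LN and 33254 to 34369 in HN. The hepatocyte markers were bright in every fetus (mean log2 signal of 9 detected markers between 17.4 and 17.6), as the tissue label says. Between LN and HN, limma called 0 of 33439 detected probes at an adjusted p of 0.05 (the lowest was 0.634) and 2113 probes at an unadjusted p of 0.05. With 4 fetuses against 4, an exact 2-sided permutation test cannot give a p below 0.0286, and precision is limited by how few arrays there are.

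The mitosis genes were on average lower in LN, 17 of 18 of them, yet in 17 of 18 the highest signal of all 8 fetuses was that of HN fetus L10, and without L10 only 5 of 18 were lower in LN. Of the 13 replication genes 8 were higher and 5 lower in LN, and without L5 this turned to 8 lower. None of the 39 genes passed an adjusted limma p of 0.05. At an unadjusted p of 0.05 there were 2 of 39, CDC45 lower in LN and CCNE1 higher, against 6.05% of 10860 genes with a detected probe, of which 2.75% were lower and 3.3% higher. With 75th percentile scaling in place of quantile normalization the split was 1 lower and 2 higher, the addition being CDKN1A. The LN and HN values of 1 of the 39 genes, CCNE1, did not overlap, against 4.14% of all genes, of which 1.56% were lower and 2.59% higher in LN. These shares are near those of all genes.

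**Figure D1:**
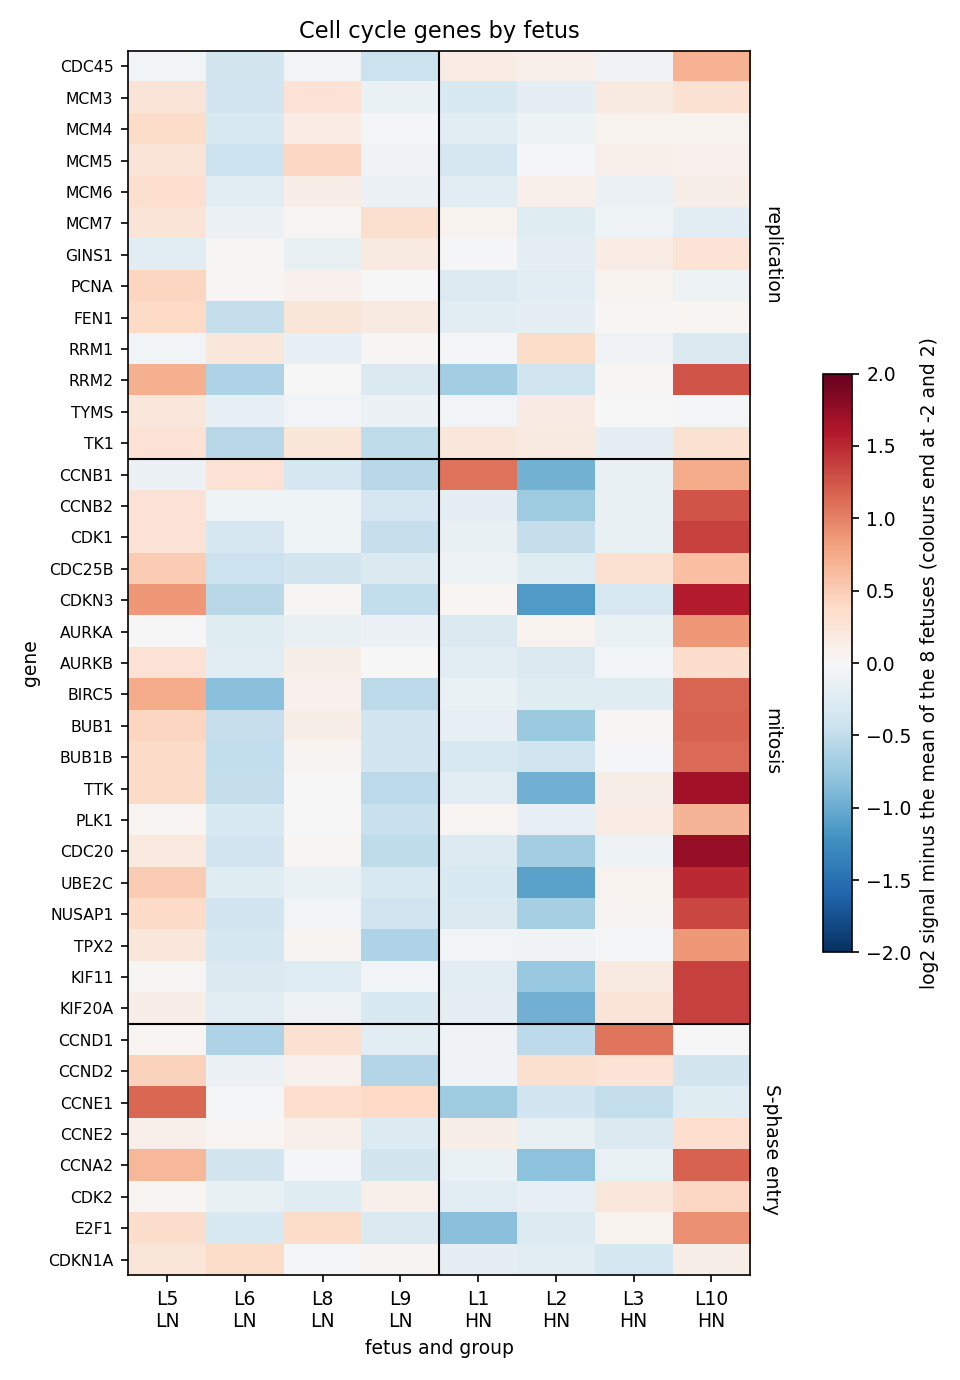
Log2 signal of each of the 39 genes (rows, grouped as replication, mitosis and S-phase entry) in each fetus (columns, LN left and HN right), as the difference from that gene's mean over the 8 fetuses; red is above and blue below that mean. The column of HN fetus L10 is the reddest of the mitosis block, where it is highest in 17 of 18 genes, and most of the replication block is pale.

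HN fetus L10 was the highest in most mitosis genes. Its signal exceeded the mean of the other 3 HN fetuses by a median of 1.54 on the log2 scale over the 18 genes (2.90-fold), from 0.55 for AURKB to 2.10 for CDC20, whereas the median over all genes was -0.017. In 12 of the 18 genes the excess was over 1 on the log2 scale, against 2.36% of all genes. The mitosis genes were also dimmer, with a median log2 signal of 6.91 against 9.37 over all genes. The part of signal level in the excess was not tested. The share of all genes that were highest in L10 was 14.9%. Of the 35 detected probes of the mitosis genes, 33 were highest in L10. The pattern was the same with 75th percentile scaling (17 of 18 highest, median excess 1.53) and in the authors' log2 table (16 of 17, 1.48). With normexp background correction, L10 was again highest in 17 of 18, and the median excess was 0.79. The array of L10 had 33254 spots well above background, within the range of the others.

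CDK1, the mitotic kinase (NM_174016), had log2 signals of 7.12, 6.49, 6.75 and 6.37 in LN fetuses L5, L6, L8 and L9, and of 6.69, 6.35, 6.69 and 8.19 in HN fetuses L1, L2, L3 and L10. The LN fetuses lay among the HN fetuses, and L10 was more than 1 log2 unit above every other fetus. The mean was 6.68 ± 0.33 in LN and 6.98 ± 0.82 in HN (± SD, 4 fetuses each), a difference of -0.30 (standard error 0.38, limma adjusted p = 0.915, exact permutation p = 0.714). Without L10 the difference was 0.11.

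CCNB1, the cyclin B that activates CDK1 (NM_001045872), was the exception in its highest fetus. It measured 7.33, 7.72, 7.10 and 6.88 in L5, L6, L8 and L9, and 8.53, 6.49, 7.30 and 8.19 in L1, L2, L3 and L10. The highest and the lowest fetus were both HN, and the LN fetuses lay between them. The log2 difference was -0.37 (standard error 0.42, limma adjusted p = 0.904, exact permutation p = 0.486), and it was -0.066 without L1 and -0.74 without L2. CCNB2, the other cyclin B, was 7.72 in L10 and between 5.76 and 6.75 in the other fetuses, and differed by -0.11 between the groups. CDC25B, a phosphatase that switches on CDK1, was 9.70 in L10 and 9.61 in LN fetus L5, and 9.41 or less in the rest. CDKN3, a phosphatase that switches CDK1 and CDK2 off, was 7.76 in L10 and 7.06 in L5, and 6.24 or less in the rest.

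Among the Aurora and Polo kinases and their partners, AURKA, which acts at the spindle poles, had a log2 signal of 8.24 in L10 and between 7.09 and 7.46 elsewhere. AURKB, the kinase of the chromosomal passenger complex, was the only mitosis gene with a higher mean in LN (log2 difference 0.11, standard error 0.17, 0.027 without L2 and 0.24 without L10), and it also had the smallest excess in L10. BIRC5 (survivin), in the same complex, was 6.63 in L10 and 6.19 in L5 against 4.62 to 5.55 in the others. PLK1, the Polo kinase, had the lowest limma p of the mitosis genes, with a log2 difference of -0.35 (standard error 0.20, limma adjusted p = 0.805, exact permutation p = 0.171) that was -0.18 without L10. TPX2, which targets AURKA to the spindle, differed by -0.35 with all fetuses and by -0.12 without L10.

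Of the genes of the spindle checkpoint and of mitotic exit, CDC20, which activates the ubiquitin ligase of mitotic exit, was 8.19 in L10 and between 5.76 and 6.64 in the other 7 fetuses. UBE2C, the conjugating enzyme of that ligase, was 9.09 in L10 and between 6.53 and 8.10 elsewhere. TTK, BUB1 and BUB1B, kinases and a kinase-like protein of the checkpoint, exceeded the other HN mean in L10 by 2.03, 1.47 and 1.38 on the log2 scale. Of the spindle proteins, the motor KIF11 exceeded it by 1.63, the kinesin KIF20A by 1.67 and the microtubule-bundling NUSAP1 by 1.64. All of these had lower means in LN, with log2 differences between -0.33 and -0.096, and higher ones in LN without L10, between 0.12 and 0.39. None of these differences reached an unadjusted limma p of 0.05.

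Over the 18 mitosis genes the median log2 difference was -0.26 (range -0.37 to 0.11), beside 0.0075 over all genes, of which 48.4% were lower and 51.6% higher in LN. More than 1.25-fold lower were 4 of the 18 (CCNB1, PLK1, TPX2 and CDC20), against 8.63% of all genes, and 0 were more than 1.25-fold higher, against 7.82%. Without L10 the median was 0.16, with 13 of 18 higher in LN, where 47.8% of all genes were lower. The spread within a group was wide: the median SD of a mitosis gene was 0.36 in LN and 0.83 in HN, and 0.31 in HN without L10, while over all genes it was 0.22 in LN and 0.21 in HN. The opposite end was also an HN fetus, since L2 was lowest in 12 of the 18 genes, against 12% of all genes. The mean deviation of the 18 genes from their 8-fetus means was 1.15 in L10 and -0.58 in L2, and those of the LN fetuses, between -0.37 and 0.31, all lay inside this range. LN fetus L5 was second to L10, with 16 of 18 genes above their own mean.

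**Figure D2:**
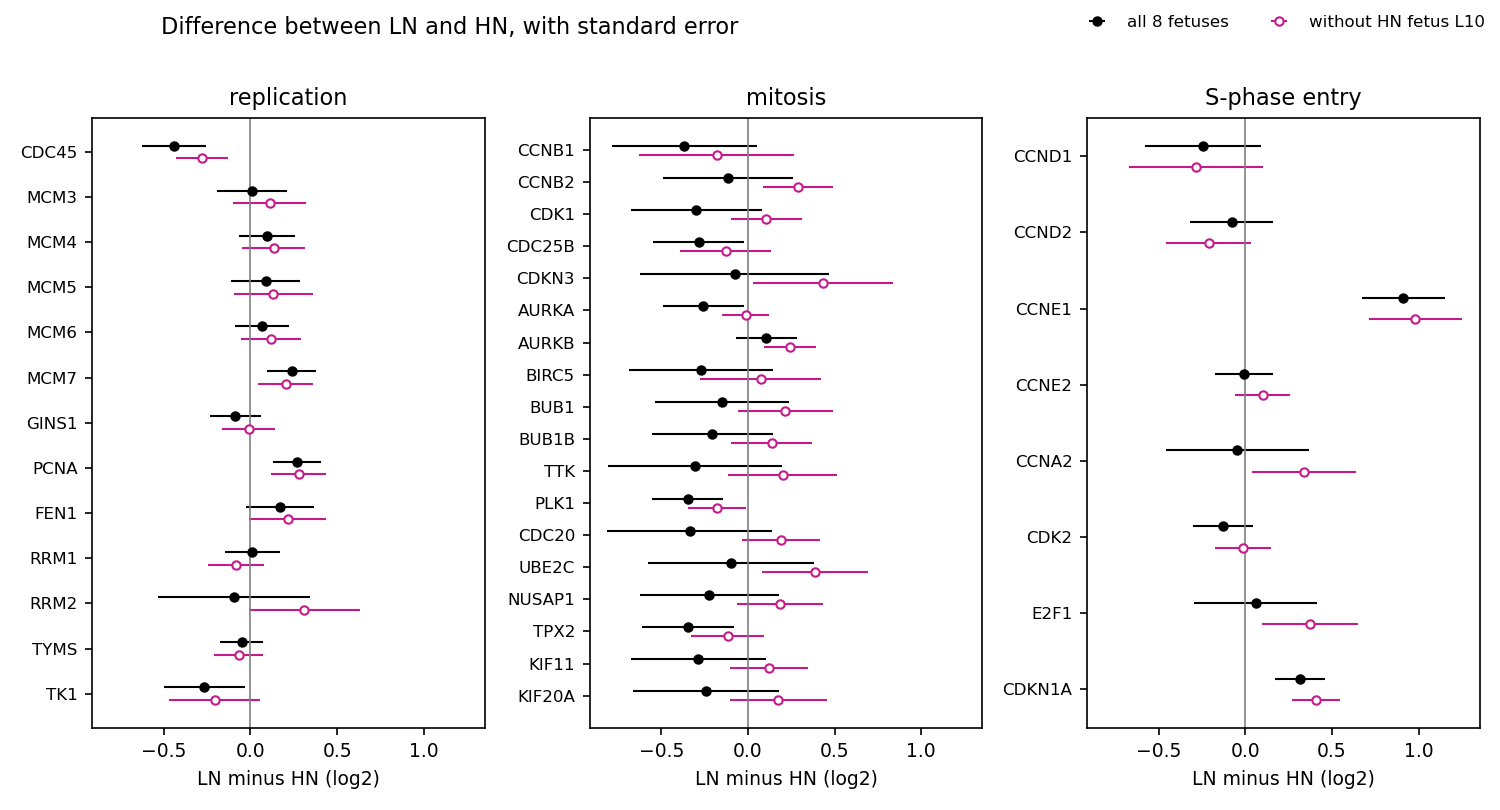
Log2 difference LN minus HN of each gene with its limma standard error, for all 8 fetuses (filled, black) and without HN fetus L10 (open, magenta), in separate panels for replication, mitosis and S-phase entry. Of the 18 mitosis genes 17 lie left of 0 with all fetuses and 5 without L10, most replication genes move less (RRM2 is the exception, from -0.095 to 0.31), and CCNE1 stays farthest to the right.

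The replication genes showed neither a common direction between the diets nor a like excess in L10. Their median log2 difference was 0.012 (range -0.44 to 0.27, and -0.038 to 0.14 for the median with a fetus left out, the number of lower genes being 8 without L5 and 7 without L8 or L1), and L10 exceeded the other HN fetuses by a median of 0.18. L10 and L5 were each the highest fetus in 5 of the 13 genes. Of all 10860 genes, 1613 were highest in L10 and 1765 in L5. Among the helicase subunits, the differences of MCM3, MCM4, MCM5, MCM6 and MCM7 were 0.0084, 0.096, 0.088, 0.068 and 0.24, with standard errors between 0.14 and 0.20. The first 4 of these changed sign when some single fetus was left out, and MCM7 stayed between 0.17 and 0.31.

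CDC45, the helicase cofactor (NM_001024490), had the largest difference of the replication genes. Its log2 signal was 9.40, 9.08, 9.40 and 9.02 in L5, L6, L8 and L9, and 9.60, 9.54, 9.38 and 10.14 in L1, L2, L3 and L10. The groups met at L5, L8 and L3, and L10 was again the highest. The difference was -0.44 (95% interval -0.86 to -0.018, 1.36-fold lower in LN), with an unadjusted limma p of 0.0426, an adjusted p of 0.785 and an exact permutation p of 0.0857. Without L10 it was -0.28 with an unadjusted p of 0.0990, and without L6, L9, L1 or L2 the unadjusted p was likewise above 0.05 (0.0515 to 0.105), as it was with position on the slide as a block (0.0911). The other detected probe differed by -0.28, and the mean over both probes by -0.36 with an unadjusted p of 0.172. GINS1, a subunit of the complex that joins CDC45 to the helicase, differed by -0.088, and its other detected probes by 0.13 and 0.037.

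PCNA, the sliding clamp (NM_001034494), leaned the other way. It measured 11.46, 11.07, 11.13 and 11.04 in L5, L6, L8 and L9, and 10.77, 10.81, 11.11 and 10.94 in L1, L2, L3 and L10. The HN fetus L3 lay among the LN fetuses and the other HN fetuses lay below all of them. The difference was 0.27 (95% interval -0.048 to 0.59, 1.20-fold), with a limma adjusted p of 0.789 and an exact permutation p of 0.0857. Its other detected probes differed by 0.18 and 0.23, and without L5 the difference was 0.17. FEN1, the flap nuclease that trims Okazaki fragments on PCNA, differed by 0.17 (standard error 0.19), which was 0.064 without L5 and 0.36 without L6.

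Of the nucleotide enzymes, RRM1, the large subunit of ribonucleotide reductase, differed by 0.012, TYMS (thymidylate synthase) by -0.051 and TK1 (thymidine kinase) by -0.27 (standard error 0.23), which was -0.41 without L5 and -0.12 without L6. RRM2, the small subunit of ribonucleotide reductase, was the replication gene that resembled the mitosis genes. Its signal was 8.89, 7.57, 8.18 and 7.89 in L5, L6, L8 and L9, and 7.49, 7.78, 8.20 and 9.45 in L1, L2, L3 and L10. The order of the top fetuses was L10 and then L5, and L10 exceeded the other HN mean by 1.62, the only excess over 1 log2 unit among the replication genes. The difference between the groups was -0.095, and 0.31 without L10.

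Among the genes of S-phase entry, CCNE1 (cyclin E1, NM_001192776), which activates CDK2 at the start of S phase, had the lowest limma p of all 39 genes. Its log2 signal was 7.19, 6.00, 6.38 and 6.44 in L5, L6, L8 and L9, and 5.34, 5.66, 5.57 and 5.81 in L1, L2, L3 and L10. Every LN fetus lay above every HN fetus, with L5 the highest. The difference was 0.91 (95% interval 0.37 to 1.46, 1.88-fold higher in LN), with an unadjusted limma p of 0.00444, an adjusted p of 0.760 and an exact permutation p of 0.0286, the smallest that this design allows. By limma p it ranked 49th of 10860 genes. The difference stayed between 0.68 (without L5) and 1.08 with each fetus left out in turn, and was 0.46 with normexp background correction. The other probe of CCNE1 was well above background on 1 array and gives no second measurement. CCNE2, cyclin E2, differed by -0.0074 (standard error 0.16), and the mean over its 2 detected probes by 0.045.

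CDKN1A, the cyclin-dependent kinase inhibitor p21 (NM_001098958), had the next lowest limma p of this group. It measured 10.37, 10.49, 10.10 and 10.18 in L5, L6, L8 and L9, and 9.94, 9.91, 9.78 and 10.25 in L1, L2, L3 and L10. The overlap was due to L10 alone, since the other 3 HN fetuses lay below all LN fetuses. The difference was 0.31 (standard error 0.14, 95% interval -0.014 to 0.64), with an unadjusted limma p of 0.0588, an adjusted p of 0.785 and an exact permutation p of 0.0857. Without L10 it was 0.41 with an unadjusted p of 0.0204 and no overlap, where 3.76% of all genes reached an unadjusted p of 0.05 and 3.23% were higher in LN with no overlap. The other detected probe of CDKN1A differed by 0.074. Of 11 detected targets of p53, the factor that induces CDKN1A, 6 were higher and 5 lower in LN, with a median of 0.013 that turned to -0.13 with 75th percentile scaling and lay between -0.10 and 0.035 with a fetus left out (above 0 without L10 alone), and 0 reached an unadjusted limma p of 0.05.

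CCND1, the cyclin D that responds to growth factors (NM_001046273), measured 13.03, 12.37, 13.30 and 12.76 in L5, L6, L8 and L9, and 12.92, 12.47, 14.06 and 13.00 in L1, L2, L3 and L10. The HN fetus L3 was the highest and the other 7 fetuses were mixed. The log2 difference was -0.25 (standard error 0.34, limma adjusted p = 0.921, exact permutation p = 0.629), and without L3 it was 0.069. CCND2, cyclin D2, differed by -0.079 and CDK2, the partner of cyclins E and A, by -0.13 (-0.012 without L10 and -0.23 without L1). CCNA2 (cyclin A2, which acts in S phase and early mitosis) was highest in L10, where it exceeded the other HN mean by 1.55, and differed by -0.047 between the groups (0.27 on its other detected probe). E2F1, an activating E2F factor, exceeded that mean in L10 by 1.26 on its brightest probe, and L10 was the highest fetus on neither of its other detected probes. The difference of E2F1 was 0.059 and changed sign with 75th percentile scaling (-0.12). Its other probes differed by 0.50 (no overlap, limma adjusted p = 0.760) and -0.15, so its probes disagreed.

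**Figure D3:**
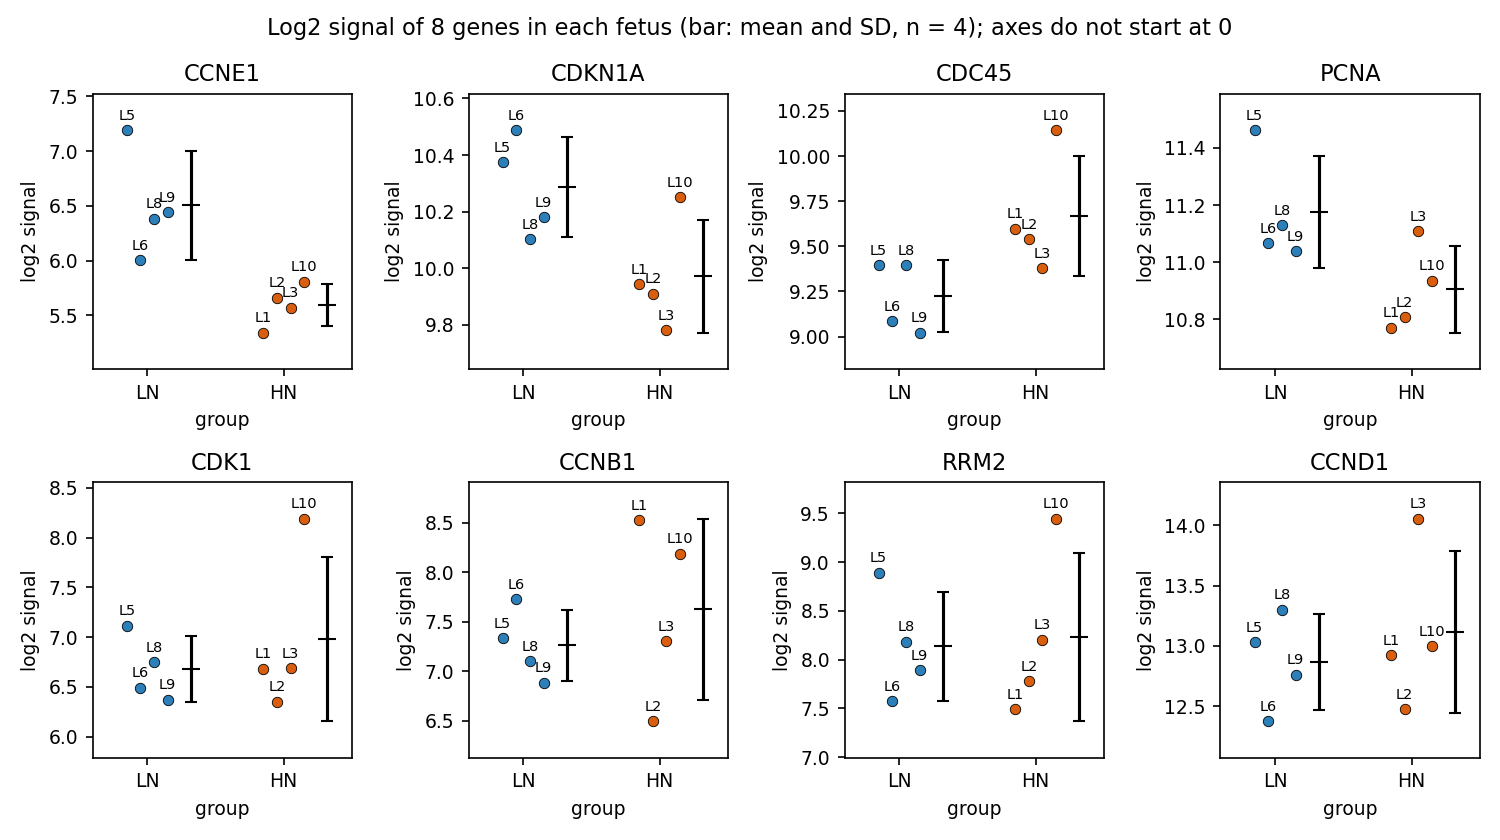
Log2 signal of 8 of the genes in each fetus, LN in blue and HN in orange, with fetus names, and the mean and SD of each group in black; the vertical axes differ between panels and do not start at 0. LN and HN separate in CCNE1 alone, L10 is the top point of CDC45, CDK1 and RRM2, and L3 is the top point of CCND1.

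The other genes of the same pathways, which were listed without regard to how they moved but with earlier results of these data known, are counted apart. Of 61 further mitosis genes (kinetochore, condensin, kinesin and checkpoint genes), 49 were detected: in LN, 40 were lower and 9 higher, the median log2 difference being -0.16, and 0 reached an unadjusted limma p of 0.05. L10 was the highest fetus in 41 of the 49, exceeding the other HN fetuses by a median of 1.09, and without L10 the median difference was 0.12 with 37 of 49 higher in LN. That median stayed below 0 with any other fetus left out, down to -0.33 without L2, and was -0.25 with 75th percentile scaling. Of 46 further replication genes, 39 were detected: 27 were higher and 12 lower in LN, with a median of 0.055 that was 0.0044 with 75th percentile scaling and 0.013 without L5. There, 2 higher and 1 lower gene reached an unadjusted limma p of 0.05, against 3.3% and 2.75% of all genes.

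Of the further genes, 3 reached an unadjusted p of 0.05 without overlap, all higher in LN, where 2.59% of all genes were higher and 1.56% lower without overlap. POLA1, the catalytic subunit of the primase-associated polymerase, had a log2 difference of 0.33 (standard error 0.13, limma adjusted p = 0.785, exact permutation p = 0.0286). POLE, the leading-strand polymerase, differed by 0.32 (standard error 0.12, limma adjusted p = 0.765, exact permutation p = 0.0286). The difference of E2F4, an E2F factor of resting cells and 1 of 19 detected further genes of S-phase entry (14 higher, 5 lower, median 0.11), was 0.27 (standard error 0.10, limma adjusted p = 0.768, exact permutation p = 0.0286). In each of these 3 genes the other detected probe pointed the other way, at -0.035 for POLA1, -0.51 for POLE and -0.21 for E2F4.

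Across all genes, 256 were more than 2-fold higher in L10 than in the mean of the other HN fetuses. Of these, 15 belong to the 39 genes and 30 to the further listed cell cycle genes, together 17.6% of the 256. They were 30.8% of the 146 listed genes with a detected probe, against 2.36% of all genes. Most were mitosis genes, 12 of the 18 and 29 of the 49 further ones. Replication genes numbered 1 of the 13 and 1 of the 39 further ones, and genes of S-phase entry 2 of 8 and 0 of 19.

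Markers of other cell types were set beside these values, because a whole liver holds several dividing cell types, and more dividing cells and more RNA per cell cannot be told apart in it. Of 14 erythroid markers, 7 were detected, among them HBM, ALAS2 and GATA1, while SLC4A1, EPB42, KLF1, HEMGN and RHAG were well above background on 1 or 2 arrays. In L10 the mean deviation of the 7 markers was -0.66 and 0 of them were highest there. They were highest in L5 (6 of 7 markers, mean deviation 2.72), the fetus that was second in mitosis genes and highest in CCNE1. Their mean log2 signal ranged from 4.94 to 8.25 in LN and from 4.31 to 5.50 in HN, and all 7 had higher means in LN. The difference of CCNE1 was 0.68 without L5, and the part of erythroid cells in the CCNE1 difference was not tested.

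Of 9 detected neutrophil markers 8 had higher means in LN, with a mean log2 signal between 9.46 and 10.8 in LN and between 8.34 and 9.54 in HN, and a mean deviation of -1.07 in L10. Their part in the CCNE1 and CDKN1A differences was not tested. Blood progenitor markers deviated by -0.33 in L10 and lymphocyte markers by 0.30, beside 0.28 in L3. The deviation of the hepatocyte markers in L10 was 0.021, that of the macrophage markers 0.17, the endothelial markers -0.019 and the stellate cell markers 0.17. As with the mitosis genes, 5 of 5 detected lymphocyte markers had lower means in LN (median log2 difference -0.45), 3 of them being highest in L10. Of the macrophage markers, 7 of 8 were lower (median -0.12), 0 of them highest in L10. Unlike the mitosis genes, both lists stayed lower in LN without L10. The lymphocyte markers were then lower in 4 of 5 (median -0.34) and the macrophage markers in 6 of 8 (median -0.13). Beside the 1.15 of the mitosis genes in L10, the neutrophil markers thus deviated there nearly as much in the opposite direction, as they did in L1 (-1.11), and the part of any cell type in the L10 values was not tested.

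**Figure D4:**
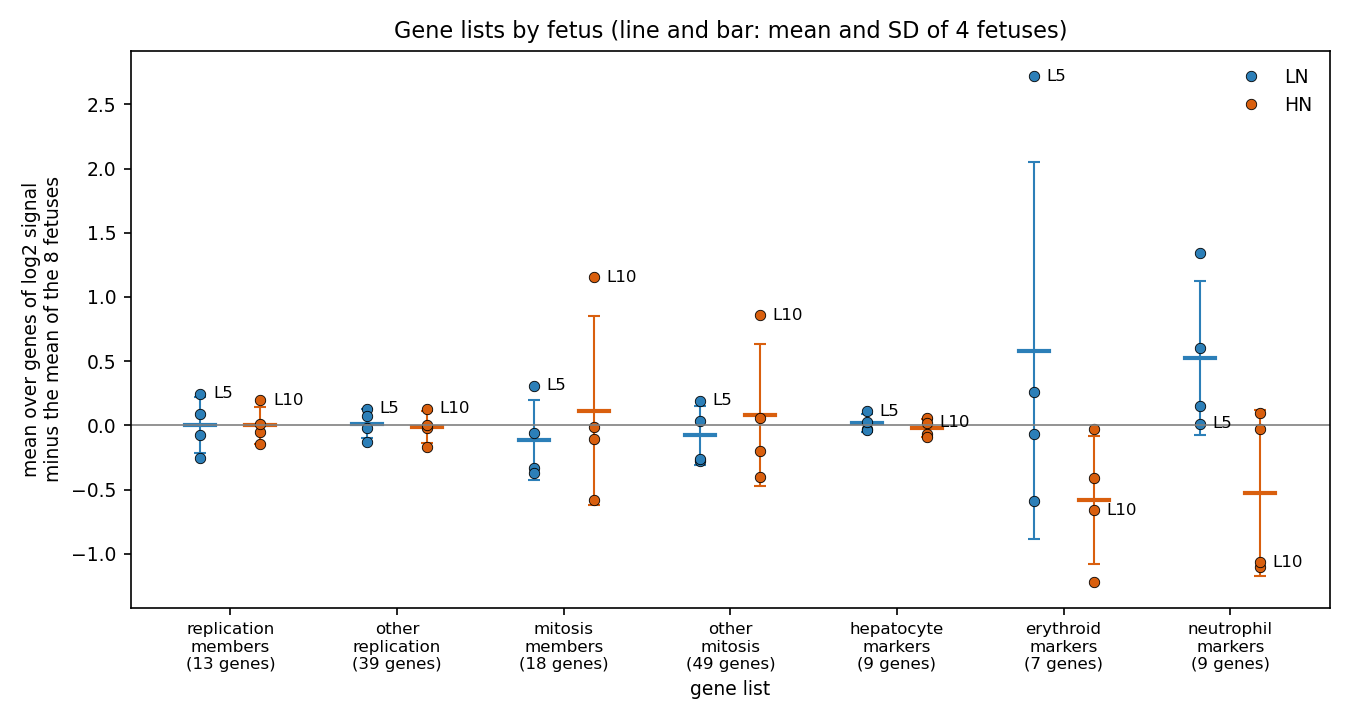
Mean over the detected genes of a list of the log2 signal minus the gene's 8-fetus mean, for each fetus (points, LN in blue, HN in orange), with the mean and SD of the 4 fetuses of each group. L10 is at 1.15 for the mitosis genes and at 0.86 for the further mitosis genes, near 0 for the hepatocyte markers and below 0 for the erythroid and neutrophil markers; L5 is at 2.72 for the erythroid markers.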

How the data were processed

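The authors deposited scanner output of 8 single-colour Agilent bovine arrays, in which the processed intensity of each spot is background-subtracted by Feature Extraction 11.0.1.1 and not normalized between arrays, and a table of log2 values of probes, quantile normalized as the study's methods state. Without control spots and spots marked as outliers, log2 intensities were averaged per probe, and 43637 of 43653 probes entered quantile normalization. Accessions of 26740 probes were matched to 12603 genes through a RefSeq gene table (ARS-UCD2.0), and 10860 genes had a detected probe. The array's own genome build differs, so no coordinates are given, and gene sequences were not used here.

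LN and HN were compared over all detected probes with limma (version 3.58.1, R 4.3.3), by lmFit and eBayes without covariates and with Benjamini-Hochberg adjustment, with exact 2-sided permutation tests of single genes. The functions were tested on simulated data. No test was made over a list.

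Genes and lists were chosen with earlier results of these data known. All 44 genes are accounted for. Values in every fetus are given for a fixed set (MKI67, TOP2A, PCNA, MCM2, CDK1, CCNB1, CCND1 and CDKN1A, where measured) and for genes with an unadjusted limma p of at most 0.05 or without overlap between groups. Those of RRM2, and the other single values, were chosen after seeing them, and so was L10 for the comparisons with and without it. Genes of the further lists are named at an unadjusted p of at most 0.05 without overlap.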

Additional observations from a re-analysis of the deposited data

Results flagged for a closer look

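In 84 groups of 4 fetuses (the 39 genes and the mean deviations of their 3 lists, LN and HN apart), a sample far from the other 3 was looked for with Dixon's test, and 4 groups held such a sample, where chance alone marks about 1 in 20 groups. In HN, fetus L10 stood apart for BIRC5 (log2 signal 6.63, nearest fetus 5.32) and for TPX2 (10.24, nearest 9.34). In LN, fetus L5 stood apart for CDC25B (9.61, nearest 8.81) and fetus L9, at the low end, for CCNE2 (4.77, nearest 5.08). For the other mitosis genes in which L10 was the highest fetus, and for the mean deviation of the 18 mitosis genes, its gap to the next HN fetus did not pass this limit.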

How the results depend on the processing

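The 16 alternatives were the mean over all detected probes of a gene, a block for position on the slide, trend and robust settings in eBayes, normexp background correction, 75th percentile scaling, a filter to probes detected on all arrays, no such filter, the deposited log2 table, and the leaving out of each of 8 fetuses. Of 622 single-gene differences so obtained, 577 kept the sign of the reported value and 45 did not, and 15 of 39 genes kept it throughout. Of the 39 genes, those lower in LN at an unadjusted p of 0.05 numbered 0 with position as a block and with the mean over probes, and 0 to 2 with a fetus left out. Those higher in LN numbered 2 with 75th percentile scaling, normexp, without the filter and with trend and robust settings, and 1 to 2 with a fetus left out. At an adjusted p of 0.05 there were 0 to 1 probes with a fetus left out (1 without LN fetus L6), and at an unadjusted p 1343 (without HN fetus L10) to 2639.

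With the mean over probes the sign turned for GINS1 (0.026), CCNB2 (0.069), CCNE2 (0.045) and CCNA2 (0.11), and with 75th percentile scaling for E2F1 (-0.12). The cause was not tested. With a fetus left out, differences ranged over 0 for MCM3 (-0.092 to 0.14), MCM4 (-0.013 to 0.21), MCM5 (-0.038 to 0.25), MCM6 (-0.034 to 0.15), RRM1 (-0.082 to 0.13), RRM2 (-0.35 to 0.31), CCNB2 (-0.37 to 0.29), CDK1 (-0.51 to 0.11), CDKN3 (-0.46 to 0.43), BIRC5 (-0.56 to 0.074), BUB1 (-0.42 to 0.22), BUB1B (-0.37 to 0.14), TTK (-0.68 to 0.20), CDC20 (-0.62 to 0.19), UBE2C (-0.47 to 0.39), NUSAP1 (-0.48 to 0.19), KIF11 (-0.58 to 0.12), KIF20A (-0.60 to 0.18), CCND1 (-0.46 to 0.069), CCND2 (-0.25 to 0.10), CCNE2 (-0.10 to 0.10), CCNA2 (-0.33 to 0.34) and E2F1 (-0.21 to 0.37).

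The median over mitosis genes was between -0.33 and -0.21 in the other settings, and between -0.46 and 0.16 with a fetus left out, above 0 without L10 alone. Over the further genes of S-phase entry it was between 0.048 and 0.14 in the other settings. With a fetus left out it was between 0.081 and 0.18. No paired analysis was possible because LN and HN share no fetus numbers, apart from the fit with position on the slide as a block, in which each position held 1 LN and 1 HN array. CDC6, near background, entered only without the filter on dim probes.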
